A study of Mus musculus with 4 samples.

Results

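The genes described here are the 304 protein-coding mouse genes, of 18042 examined (1.68%), whose surroundings were rich in distal open chromatin in both Cho libraries. Open chromatin was measured by ATAC-Seq, in which the Tn5 transposase inserts sequencing adapters where DNA is accessible, and each library was deposited as a list of MACS2 peaks. For every gene, peak summits lying over 1 kb from any transcription start site (TSS) were counted in a window of the gene body plus 50 kb on each side and divided by the window length. A gene was called dense in a library when it ranked in the top 5% of genes of that library, and shared when it was dense in both Cho replicates. The summit counts of the Cho libraries therefore chose these genes, and their density in those libraries is given as a description, without a test.

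All 4 libraries came from primary chondrocytes, which per the methods were isolated with collagenase from the rib cartilage of newborn mice and used within 2 passages. Cho had 2 replicates, which the methods call biological and for which the labels give no genotype. WT was 1 library of wild-type mice, and E160/E308_Del was 1 library of mice homozygous for deletions of both E160 and E308, littermates of the WT mice. E160 and E308 are enhancer regions upstream of Sox9 that lie outside the window of that gene. The lists held 76242 and 148330 intervals for Cho replicates 1 and 2, 90971 for WT and 169591 for E160/E308_Del, of which 62233, 129481, 71683 and 144542 had a distal summit. Cho replicate 2 was in another genome build than the other 3, so the replicates were compared gene by gene and by distance from the TSS. The cells were analysed in bulk, so a site open in fewer cells and a site less open in each cell cannot be told apart.

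Promoters are open in most cells that express a gene, whereas many distal open sites are enhancers, which bind transcription factors and act on genes at a distance. In chondrocytes, the cells that build cartilage, SOX9 acts with SOX5 and SOX6 on enhancers of matrix genes such as Col2a1, which encodes type II collagen, and Acan, which encodes aggrecan. AP-1, a dimer of FOS and JUN proteins, and the RUNX and TEAD families also bind enhancers of mesenchymal cells.

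Sites found at about the same place in both replicates were read from the reference. For each of 10 genes, the strongest distal summit of Cho replicate 1 was taken that had a Cho replicate 2 summit within 250 bp of the same distance from the TSS, and 121 bp of the NCBIM37 (mm9) reference centred on it are given on the plus strand. Capitals mark the letters of AP-1 (TGANTCA), SOX (AACAAT), RUNX (TGTGGT) or TEAD (GGAATG) motifs on either strand. Sox9, Col2a1 and Acan are the marker genes of the cells. The Sox9 site lay 29.5 kb downstream of the TSS in intergenic DNA (chr11:112672994-112673114), the Col2a1 site in an intron of Col2a1 (chr15:97831800-97831920) and the Acan site in an intron of the neighbouring gene Mfge8 (chr7:86285281-86285401).
Sox9: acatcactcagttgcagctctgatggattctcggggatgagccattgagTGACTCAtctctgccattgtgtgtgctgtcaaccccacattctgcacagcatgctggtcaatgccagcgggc
Col2a1: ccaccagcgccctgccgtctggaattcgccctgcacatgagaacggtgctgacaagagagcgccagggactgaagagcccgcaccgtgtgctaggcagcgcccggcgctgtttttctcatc
Acan: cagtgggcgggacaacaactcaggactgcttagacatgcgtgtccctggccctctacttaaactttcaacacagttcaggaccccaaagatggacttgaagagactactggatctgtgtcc

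Such a site was read for 18 of the leading genes of the 20 loci described further on, and AP-1, SOX, RUNX or TEAD letters occurred at 5 of them and not at 13. All 5 are given with 2 of the 13. The share of all distal summits with any of these letters was not counted, so the 5 have no background. AP-1 letters alone occurred in 28.7% of all distal summits of Cho replicate 1. An AP-1 motif was present at the sites of Slc38a3, in an intron of Gnai2 (chr9:107521926-107522046), and Lmna, in an intron of Lmna (chr3:88296893-88297013). A TEAD motif was present at the sites of Cd9, which was intergenic (chr6:125363515-125363635), and Vgll4, in an intron of Vgll4 (chr6:114839086-114839206). The intergenic site of Scgb1a1 (chr19:9181385-9181505) had a pair of RUNX motifs. At Pwwp2b, in an intron of Lrrc27 (chr7:146419754-146419874), and at Bag5, in intergenic DNA (chr12:112942929-112943049), none of these letters occurred.
Slc38a3: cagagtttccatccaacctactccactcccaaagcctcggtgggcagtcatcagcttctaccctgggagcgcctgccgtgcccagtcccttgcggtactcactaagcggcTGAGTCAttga
Lmna: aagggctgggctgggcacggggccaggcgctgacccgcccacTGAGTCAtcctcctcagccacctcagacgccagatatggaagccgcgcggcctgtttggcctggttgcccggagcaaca
Cd9: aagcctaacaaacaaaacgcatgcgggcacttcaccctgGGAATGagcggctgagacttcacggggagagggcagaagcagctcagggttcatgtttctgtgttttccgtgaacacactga
Vgll4: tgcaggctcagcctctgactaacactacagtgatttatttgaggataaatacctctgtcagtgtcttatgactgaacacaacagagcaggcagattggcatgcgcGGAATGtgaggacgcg
Scgb1a1: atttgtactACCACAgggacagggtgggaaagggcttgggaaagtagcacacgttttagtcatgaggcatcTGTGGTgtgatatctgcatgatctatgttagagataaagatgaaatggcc
Pwwp2b: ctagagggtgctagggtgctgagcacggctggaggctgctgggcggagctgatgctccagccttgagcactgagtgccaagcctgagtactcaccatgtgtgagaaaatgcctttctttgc
Bag5: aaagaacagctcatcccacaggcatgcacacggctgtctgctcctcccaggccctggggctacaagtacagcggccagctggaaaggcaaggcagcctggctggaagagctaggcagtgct

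These sites had summits in the other libraries as well, with 1 exception. Fold enrichment, the deposited ratio of summit pileup to background, at the Sox9 site was 8.45 and 6.09 in Cho replicates 1 and 2, 6.15 in E160/E308_Del, and no summit was called within 250 bp in WT. It was 12.2, 2.75, 3.89 and 2.62 at the Col2a1 site in Cho replicates 1 and 2, WT and E160/E308_Del. At the Pwwp2b site it was 16.0, 25.3, 16.0 and 18.5, and at the Cd9 site 18.6, 27.9, 13.4 and 15.6. Summits at the same site were thus called in at least 3 libraries for each of these genes. Values of Cho replicate 1 read here were whole multiples of a common step. Whether backgrounds were set alike in all lists was not tested, so these values rank peaks within a list and are not compared across lists.

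The windows of the 304 shared genes held 9 to 48 distal summits in Cho replicate 1 and 17 to 87 in Cho replicate 2. Density ranged from 8.11 to 20.7 summits per 100 kb in Cho replicate 1, with a median of 9.89, against a median of 2.65 over all genes. In Cho replicate 2 it ranged from 16.2 to 32.0, with a median of 18.7 against 6.72. Across all 18042 genes, whose windows overlap and which are not independent, the Spearman correlation of density between the replicates was 0.717. Between Cho replicate 1 and WT or E160/E308_Del it was 0.745 or 0.757, and between Cho replicate 2 and these it was 0.877 or 0.917. The Cho replicates thus had the lowest correlation of the pairs computed. The shared genes were 33.7% of the 903 dense genes of each replicate. They formed 187 loci of overlapping windows, 123 of them with 1 gene, and the largest locus held 8. Because windows overlap, the genes had 3351 distinct distal summits in Cho replicate 1 and 6335 in Cho replicate 2.

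**Figure D1:**
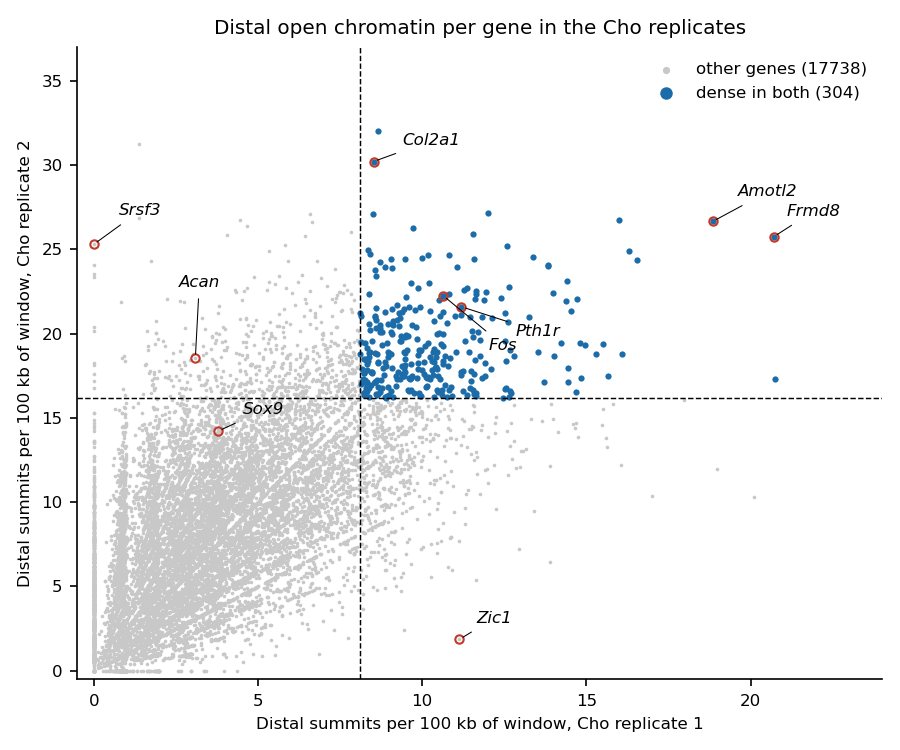
Distal summits per 100 kb of window in Cho replicate 1 (x axis) and Cho replicate 2 (y axis), 1 point per gene, with dashed lines at the 5% limit of each library. The 304 genes dense in both (blue) lie right of and above these lines (8.11 and 16.1), Col2a1 lies among them, and Sox9 and Acan lie below the Cho replicate 1 limit.

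The limit fell within a continuous spread. Just inside it, Crispld2 had 8.11 and 21.2 distal summits per 100 kb in Cho replicates 1 and 2, Kctd7 had 8.11 and 18.8, and Wdr1 had 8.90 and 16.2. Just outside it, Apbb2 had 8.10 and 16.7, Ifrd2 had 9.49 and 16.1, and Snx33 had 8.10 and 17.1. Each of these 6 genes lay within 1 summit of the limit in the replicate that decided its call.

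Loci were ranked by the lower of the 2 Cho percentiles of their best gene. The first was that of Amotl2, which encodes an angiomotin-like scaffold protein of cell junctions. Its window held 22 and 31 distal summits in the Cho replicates, 18 in WT and 28 in E160/E308_Del. All 4 counts placed the gene above the 99th percentile of its library. Its window held 1 annotated gene start, its own. A summit within 1 kb of its TSS was present in all 4 libraries, with fold enrichments of 25.8, 12.4, 9.28 and 6.05 in that order. These summits lay 996, 623, 985 and 965 bp downstream of the annotated TSS. All but that of Cho replicate 2 thus fell just inside the 1 kb limit.

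The next loci were led by genes of varied roles. Ndst1, an enzyme that modifies heparan sulfate, had 26 and 44 distal summits in Cho replicates 1 and 2. Frmd8, which encodes a protein of the ADAM17 sheddase complex, had 26 and 32. Scgb1a1, which encodes a secretoglobin of airway cells, had 17 and 26 although no library had a summit at its promoter. It shared its locus with Ahnak, a large scaffold protein gene with 24 and 35 distal summits and a promoter summit in both replicates. The locus of Stk11, the kinase LKB1 that activates AMPK, held 8 shared genes, with 19 and 28 distal summits for Stk11 itself.

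The sixth locus contained Col2a1. It was led by Slc48a1, a heme transporter gene with 15 and 26 distal summits in Cho replicates 1 and 2, and also held Hdac7, Vdr, Tmem106c and Rapgef3. Vdr, the vitamin D receptor gene, had 13 and 28 distal summits. Hdac7, a class IIa histone deacetylase gene, had 17 and 32. The windows of these genes overlap that of Col2a1 or of one another, so a summit can be counted for several of the 6 genes. The windows of Slc48a1 and Col2a1 themselves do not overlap and share no summit.

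Several other leading loci held genes of transcription or signalling. Vgll4, a cofactor of TEAD factors, had 25 and 47 distal summits in the Cho replicates, 31 in WT and 50 in E160/E308_Del, and 21 of the 25 had a Cho replicate 2 summit at the same distance. Smad7, the inhibitory SMAD of TGF-beta and BMP signalling, had 17, 27, 17 and 26. Socs3, an inhibitor of cytokine signalling through JAK and STAT proteins, had 12, 27, 20 and 28. Prrx2, a homeobox gene of limb and craniofacial mesenchyme, had 17, 30, 20 and 33. Lmna, which encodes lamins A and C of the nuclear envelope, had 15, 29, 18 and 30. In each of these genes the Cho replicate 1 and WT counts were the lower pair, as were the interval numbers of those lists.

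The remaining leading genes were Cd9 (a tetraspanin), Pwwp2b, Lyl1 (a helix-loop-helix factor of blood cells), Slc38a3 (a glutamine transporter), Lgals3bp, Csrp1 (a LIM domain protein), Parp10, Bag5 (a co-chaperone of Hsp70) and Espn (an actin-bundling protein). Over the 20 leading genes, density ranged from 11.4 to 20.7 summits per 100 kb in Cho replicate 1 and from 21.0 to 27.2 in Cho replicate 2. In libraries the rule did not use it ranged from 12.7 to 19.2 in WT and from 19.9 to 27.6 in E160/E308_Del. All 20 were dense in WT and in E160/E308_Del, where 5% of all genes were. A promoter summit was present for 13 and 16 of the 20 in the Cho replicates, 17 in WT and 19 in E160/E308_Del.

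**Figure D2:**
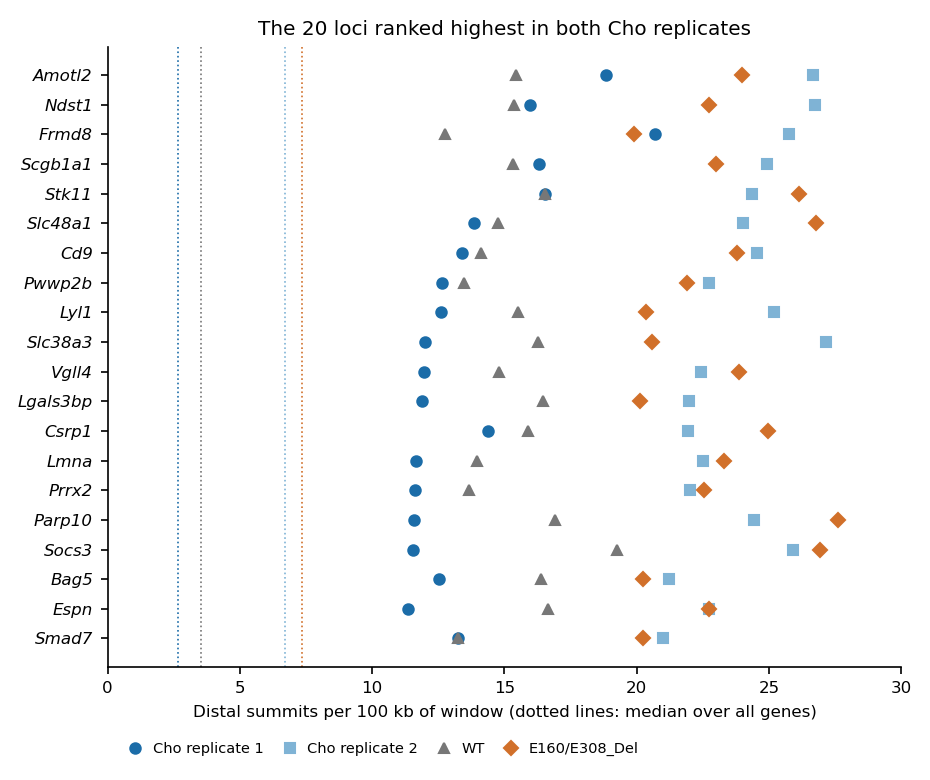
Distal summits per 100 kb of window (x axis) for the gene leading each of the 20 loci with the best worse rank over the Cho replicates, in the 4 libraries (symbols), with dotted lines at the library medians over all genes. All symbols lie right of the medians, from 11.4 upwards, and Cho replicate 2 and E160/E308_Del lie right of Cho replicate 1 and WT in all rows but that of Frmd8, where Cho replicate 1 had 20.7 and E160/E308_Del 19.9.

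The chondrocyte markers were then examined. Sox9 had a promoter summit in all 4 libraries, with fold enrichments of 18.6, 11.8, 9.47 and 8.68 in Cho replicates 1 and 2, WT and E160/E308_Del. Its window held 4, 15, 4 and 13 distal summits, at percentiles 66.7, 90.7, 53.1 and 82.3, so Sox9 was dense in none of them. Col2a1 had 11, 39, 16 and 24 distal summits and was dense in all 4 libraries, with percentiles of 95.9, 99.99, 98.0 and 97.8. Of its 11 distal summits in Cho replicate 1, 9 had a Cho replicate 2 summit at the same distance. Acan had 5, 30, 9 and 19 distal summits, at percentiles 57.9, 97.9, 71.0 and 79.5, and no promoter summit in Cho replicate 1. The markers thus did not behave alike. Col2a1 was shared, Acan was dense in Cho replicate 2 alone, and Sox9 ranked above the median gene in all 4 libraries without reaching the limit in any.

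**Figure D3:**
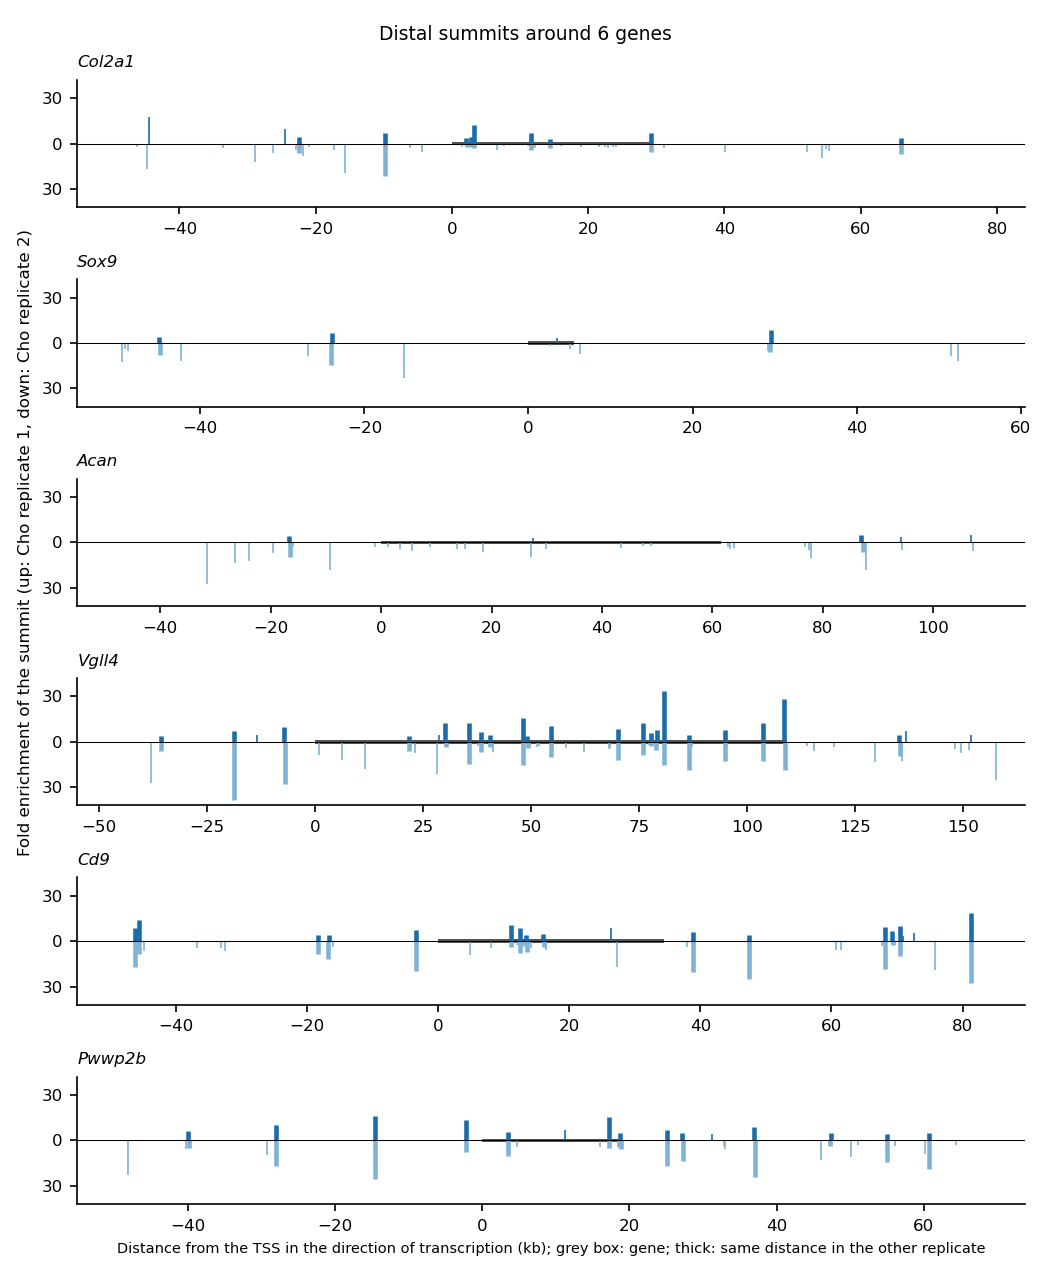
Distal summits by distance from the TSS (x axis, kb) and fold enrichment (y axis, up for Cho replicate 1 and down for Cho replicate 2) around 6 genes, with grey boxes for the gene body and thick lines where the other replicate had a summit within 250 bp of the same distance. At Vgll4, 21 of 25 Cho replicate 1 summits were matched, at Cd9 15 of 18, at Pwwp2b 13 of 15 and at Col2a1 9 of 11, whereas Sox9 and Acan had 4 and 5 summits to match.

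Genes of the chondrocyte were next grouped by role. Of 22 cartilage matrix genes, 2 were shared (9.09%, against 1.68% of all genes): Col2a1, and Col27a1, a fibrillar collagen gene of cartilage with 20 and 54 distal summits in Cho replicates 1 and 2. The group had median percentiles of 70.4 and 93.4 in Cho replicates 1 and 2, where the median over all genes is 50. In Cho replicate 2, 10 of the 22 were dense, among them Col11a1 with 78 distal summits, Comp with 24 and Matn4 with 26. Cho replicate 1 had 4, 8 and 5 at these genes, and WT had 14, 16 and 12. The group median therefore lay above the median gene in both replicates, and the limit was met mainly in Cho replicate 2. Col11a1, Comp and Matn4 were chosen after their values were seen. Cilp, a matrix protein of deep articular cartilage, was lowest, with 0 distal summits in Cho replicate 1 and 7 in Cho replicate 2.

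Among 24 chondrogenic transcription factors, 1 was shared (4.17%, with 1.68% of all genes), which is near the background at this size. It was Foxc1, a forkhead factor of skeletal mesenchyme with 9, 19, 9 and 15 distal summits in Cho replicates 1 and 2, WT and E160/E308_Del. The median percentile of the group was 71.4 and 78.3 in Cho replicates 1 and 2, and 21 of the 24 lay above the median gene in both. The share of all genes above it in both was not counted, so this number has no background. A promoter summit was present for 17 of them in both replicates. Pitx1, a homeobox gene of the hindlimb, had 0 distal summits in Cho replicate 1 and 9 in Cho replicate 2. It had 5 in WT and 15 in E160/E308_Del, at percentiles 60.8 and 87.0.

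Of 31 genes of growth factor signalling in cartilage, 1 was shared (3.23%, also near the 1.68% of all genes). This was Pth1r, the receptor for parathyroid hormone-related protein, with 14, 27, 19 and 32 distal summits in the 4 libraries and no promoter summit in any. Ihh, the hedgehog ligand of prehypertrophic chondrocytes, had 0, 10, 5 and 9. The median percentiles were 75.2 and 78.0 in the Cho replicates, so this group, like the transcription factors, ranked above the median gene without reaching the limit. None of 12 genes of hypertrophic chondrocytes and osteoblasts was shared, a count that 1.68% of all genes would also give. Their median percentiles were 50.9 and 62.1 in Cho replicates 1 and 2, but 86.1 in WT and 80.6 in E160/E308_Del. Sost, an osteocyte gene, was lowest by the lower of its 2 Cho percentiles, with 1 and 7 distal summits. It had 9 in WT and 12 in E160/E308_Del, at percentiles 89.8 and 78.1.

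The 8 genes of AP-1 factors had median percentiles of 94.96 and 93.8 in the Cho replicates, the latter close to the 93.4 of cartilage matrix. All 8 lay above the median gene in both, a number again without a background over all genes. Fos had 11, 23, 17 and 24 distal summits in Cho replicates 1 and 2, WT and E160/E308_Del, and Fosb had 11, 20, 14 and 22. Both were shared (25% of the 8, against 1.68% of all genes), and both encode partners of JUN proteins that are induced by growth factors and stress. Fosl2, another FOS family member, was the lowest of the group, with 6, 16, 8 and 15. Their place among the groups depended on the window. As the mean of both replicates, the median was 94.4, and it was 75.6 in gene bodies alone, below growth factor signalling (82.7), 82.8 by counts per window, below fibroblast genes (87.3), and 86.7 by the nearest TSS, below transcription factors (90.7).

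Markers of other cells were counted in the same way. The 16 fibroblast genes had 154 and 293 distal summits in all in Cho replicates 1 and 2, 178 in WT and 287 in E160/E308_Del, and median percentiles of 91.1, 86.5, 80.8 and 78.0. Prrx1, a homeobox gene of limb and dermal mesenchyme, was the only shared gene of the 16 (6.25%, with 1.68% of all genes). It had 16, 32, 20 and 29 distal summits. The fibroblast group was thus among the highest in both Cho replicates, and its part in the shared open chromatin was not tested. Skeletal muscle genes had median percentiles of 41.6 and 38.0 in the Cho replicates and 60, 148, 88 and 179 distal summits over 18 genes. Blood and endothelial genes had 51.0 and 40.6, with 46, 98, 68 and 143 over 13 genes. Myod1, which specifies muscle, had 0 distal summits in Cho replicate 1 and 5 in Cho replicate 2.

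No gene of the muscle, blood and endothelium, neuron, keratinocyte or hepatocyte groups was shared, and with 1.68% of all genes shared little can be read from that. Median percentiles were 40.3 and 52.6 for 15 neuron genes, 40.8 and 42.02 for 12 keratinocyte genes, and 52.6 and 38.7 for 10 hepatocyte genes. Ivl, of the cornified envelope, and Cyp3a11, a liver cytochrome, had 0 distal summits in all 4 libraries. The 14 housekeeping genes, of which 12 had a promoter summit in both replicates, had median percentiles of 56.1 and 63.8. As the mean of both replicates this was 59.9, and it moved from 43.9 in gene bodies alone to 91.6 over windows with at most 3 gene starts. The groups hold 8 to 31 genes, so a single gene moves a share by 3 percentage points or more.

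**Figure D4:**
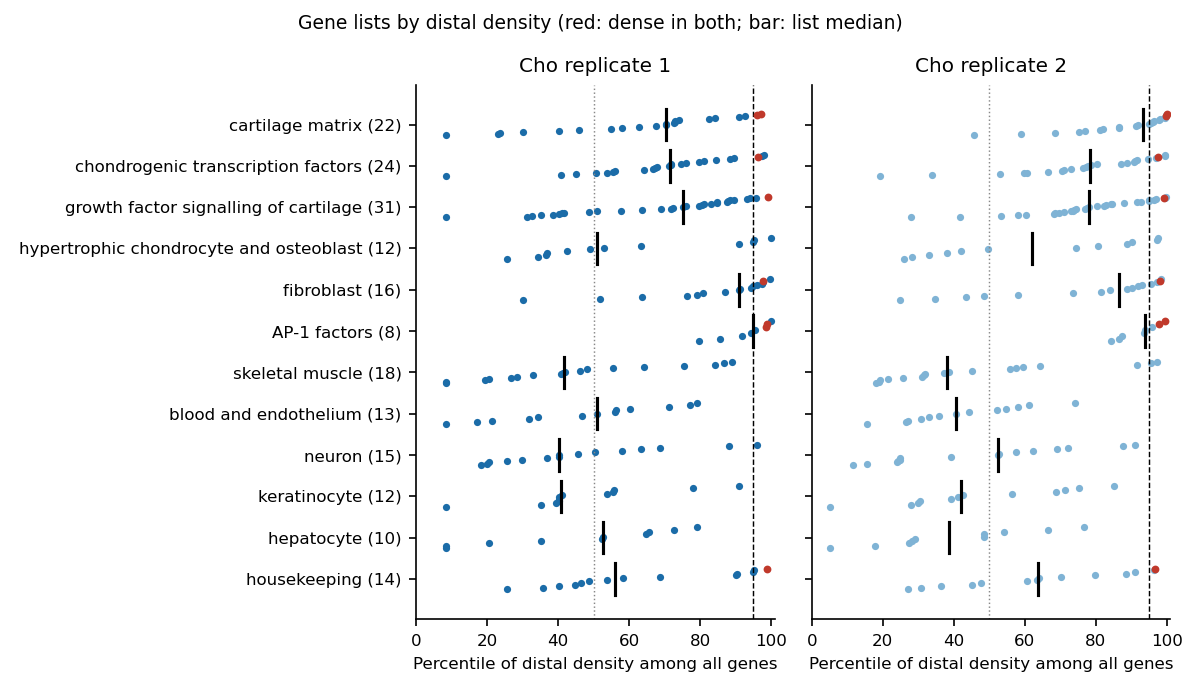
Percentile of distal summit density (x axis, 0 to 100) for each member of 12 gene groups (y axis) in Cho replicates 1 and 2. Red points are genes dense in both, bars are group medians, and vertical lines stand at 50 (dotted) and 95 (dashed). AP-1 factors have medians of 94.96 and 93.8, an order that other windows change (75.6 in gene bodies alone), cartilage matrix medians lie at 70.4 and 93.4 in the Cho replicates, and the muscle bars lie below 50 in both.

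Promoters of the shared genes were open more often than those of other genes. A promoter summit, within 1 kb of the TSS, was present for 228 (75%) and 251 (82.6%) of the 304 in Cho replicates 1 and 2, for 244 (80.3%) in WT and 263 (86.5%) in E160/E308_Del, where 58.7%, 64.8%, 62.1% and 67.8% of all genes had one. Both Cho replicates had it for 208 genes (68.4%, exact 95% binomial interval 62.9% to 73.6%), against 54.1% of all genes. The interval treats genes as independent, which overlapping windows are not, and covers counting error only. For 33 genes (10.9%), Scgb1a1 and Pth1r among them, neither replicate had a promoter summit. Strength of the open promoters was also read. Their median fold enrichment was 12.5 and 12.7 in Cho replicates 1 and 2, where that of all open promoters was 12.2 and 17.6. In WT it was 10.5 against 12.7, and in E160/E308_Del 9.58 against 12.4.

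Windows of shared genes resembled those of all genes in number of gene starts and in gene length. They held a median of 4 gene starts, as did those of all genes, and the median gene length was 19.4 kb against 17.8 kb. Distal summits were spread over the window. In Cho replicate 1, 34.1% of 4493 counted summits lay in gene bodies, 32.2% upstream and 33.7% downstream, and in Cho replicate 2 the shares of 8400 were 34.4%, 31.5% and 34.2%. Per 100 kb, gene bodies held 11.6 summits in Cho replicate 1 and 21.8 in Cho replicate 2, upstream flanks 9.51 and 17.4, and downstream flanks 9.97 and 18.9. Shares and densities by part of the window were not counted over all genes.

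Cho replicate 2 had more distal summits at 302 of the 304 genes. The median ratio of its count to that of Cho replicate 1 was 1.91, and 2.25 over the 15017 genes with a summit in Cho replicate 1. Zfp184, a zinc finger gene, had 24 in Cho replicate 1 and 20 in Cho replicate 2, and Pcdhgc5, a clustered protocadherin, had 22 and 20. For Pcdhgc5 the window was 268 kb in one annotation and 122 kb in the other, so its counts cover unequal stretches. Both were named because they are the exceptions, after their values were seen.

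Where the replicates had summits at the same distance was examined next. Of 4493 distal summits counted for shared genes in Cho replicate 1, 2506 (55.8%) had a Cho replicate 2 summit within 250 bp of the same distance from the TSS, against 49.5% over all genes. A dense window gives more chances to match, and this was not corrected for. With equal numbers of the strongest peaks per list the order turned, at 30.7% for shared genes and 32.4% over all genes. Among the 191 shared genes with annotated lengths within 250 bp in both builds, 71.4% matched, against 65.1% of all genes so limited. At Cd9 15 of 18 matched and at Stk11 16 of 19, whereas at Amotl2 4 of 22 did from the TSS and 12 of 22 when measured from the gene end.

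Stronger summits coincided more often. In 5 equal bins of fold enrichment in Cho replicate 1, with 8303 summits each, the matched share was 37.5%, 42.7%, 46.8%, 52.2% and 61.7% from weakest to strongest. At 20007 matched summits, fold enrichment in the replicates had a Spearman correlation of 0.217, given as a description since summits share windows and libraries. The rank of a site in either replicate was thus weakly related to its rank in the other. Whether backgrounds were set alike in both lists was not tested, so these ranks may order unlike measures.

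The letters of AP-1 became more frequent over the same bins. They occurred in 17.7%, 23.0%, 26.6%, 32.3% and 36.4% of the 121 bp windows from weakest to strongest, against 3.75% of 51108 windows placed every 50 kb. Over all distal summits of Cho replicate 1, RUNX letters occurred in 17.3% (8.45% of the spaced windows), TEAD letters in 14.9% (6.51%) and SOX letters in 4.65% (8.84%). The spaced windows had a median GC content of 42.1%, against 47.9% at the summits, and the part of base composition was not tested. Letters of the CTCF motif, bound by the factor that organises chromatin loops, were rarer in the strongest bin than in the weakest. They occurred in 2.23%, 2.49%, 2.06%, 1.40% and 0.819% of the windows from weakest to strongest, against 0.248% of the spaced windows.

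**Figure D5:**
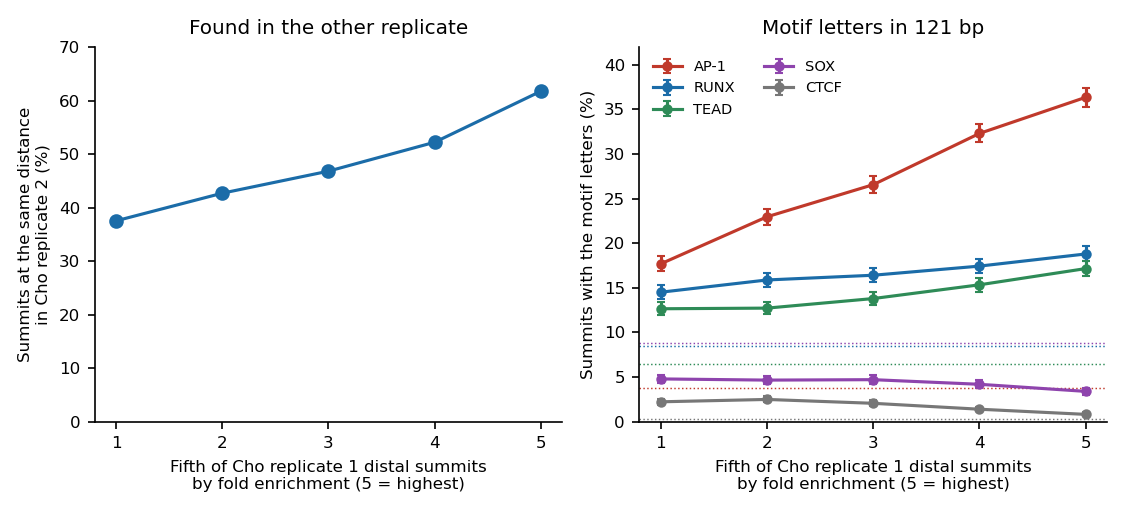
Cho replicate 1 distal summits in 5 equal bins of fold enrichment (x axis, weakest to strongest): left, percent with a Cho replicate 2 summit at the same distance (y axis); right, percent of 121 bp windows with the letters of 5 motifs (y axis), with exact 95% binomial intervals and dotted lines for windows every 50 kb. The matched share climbs from 37.5% to 61.7% and AP-1 from 17.7% to 36.4%, while CTCF falls from 2.23% to 0.819%.

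Summits in the windows of shared genes were not richer in AP-1 letters. These occurred at 754 of 3351 (22.5%, interval 21.1% to 23.95%) in Cho replicate 1, against 29.1% of the other distal summits. The same order held in WT (16.0% and 18.5%) and in E160/E308_Del (18.3% and 21.4%). Median GC content moved with it, at 52.1% in windows of shared genes and 47.1% elsewhere in Cho replicate 1. Matched and unmatched summits of Cho replicate 1 had AP-1 letters at 27.0% and 27.4%. Within bins of strength they differed, at 15.5% and 19.0% in the weakest bin, 23.4% and 29.4% in the middle bin, and 37.6% and 34.3% in the strongest. Cho replicate 2 was not searched, for want of a genome of its build.

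WT and E160/E308_Del had no part in choosing the genes. Of the 304, 218 (71.7%, interval 66.3% to 76.7%) were dense in WT and 233 (76.6%, 71.5% to 81.3%) in E160/E308_Del, where 5% of all genes were, and 198 were dense in all 4 libraries. These intervals also treat genes with overlapping windows as independent, and cover counting error only. The shares were lower for genes dense in a single Cho replicate, with no test of the difference. Of 599 dense in Cho replicate 1 alone, 22.9% were dense in WT and 20.03% in E160/E308_Del, and of 599 dense in Cho replicate 2 alone, 45.1% and 55.3% were. Choosing genes without Cho replicate 1 or without Cho replicate 2 gave 54.0% or 39.3% dense in WT, and 62.5% or 39.1% in E160/E308_Del. With 1 library each, a difference between WT and E160/E308_Del has no replicate check, and none is drawn from the 20 shared genes dense in WT alone of that pair or the 35 dense in E160/E308_Del alone.

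The 51 shared genes dense in neither of these libraries still ranked high, with median percentiles of 89.6 in WT and 91.7 in E160/E308_Del. Sash1, a scaffold protein gene, had 24, 58, 19 and 40 distal summits in Cho replicates 1 and 2, WT and E160/E308_Del (window of 264 kb, or 323 kb for Cho replicate 2), and Lpar1, a lysophosphatidic acid receptor gene, had 18, 36, 14 and 36. Igfbp6, a binding protein of insulin-like growth factors, had 10, 21, 7 and 14. Crybb1, a lens crystallin gene, was lowest in WT, with 11, 20, 5 and 17. These 4 genes were chosen after their values were seen.

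Some genes were far apart in the Cho replicates. Zic1, a zinc finger factor of neural and dorsal mesenchymal tissue, had 12 and 2 distal summits in the Cho replicates, 2 in WT and 4 in E160/E308_Del, and Mrps14, of the mitochondrial ribosome, had 10, 5, 6 and 11. In the other direction Srsf3, a splicing factor gene, had 0, 28, 11 and 19, and Hoxa6, of the HoxA cluster, had 0, 25, 12 and 20. At Zic1 the Cho replicate 1 count stood apart from the other 3 libraries, and at Srsf3 and Hoxa6 its count of 0 did.

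Shared genes lay on the autosomes, and chromosome 15 held the largest share of them relative to its genes. There 35 of 659 genes (5.31%) were shared, among them Col2a1 and its neighbours, Plec, Myh9, Itga5 and Nr4a1 (named after their values were seen), against 25 of 1419 (1.76%) on chromosome 11. Distal summits per Mb on chromosome 15 were 26.7, 54.5, 30.0 and 61.0 in Cho replicates 1 and 2, WT and E160/E308_Del, within the range of the autosomes in each library. On the X chromosome 0 of 731 genes were shared, and its distal summits per Mb were 7.94, 15.0, 8.31 and 19.1, below the lowest autosome in all 4.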

How the data were processed

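Processed peak lists of 4 ATAC-Seq libraries of mouse rib chondrocytes were analysed: 2 of Cho, 1 of WT and 1 of E160/E308_Del. Per the labels, the authors used fastp, Bowtie2 2.4.4, SAMtools 1.9, Picard 2.20.7 and MACS2 2.2.4, with a q-value limit of 0.05 in their methods. Each deposited row holds a score, the fold enrichment (a ratio to background), the −log10 p-value and the −log10 q-value. Peaks were called per library, and read depth is not given in the sources used here, so the number of intervals limits comparisons between lists.

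The labels name mm9 for all lists. Cho replicate 2 was read as GRCm38, since 99 of its peaks lay on 24 sequences absent from NCBIM37 and 64.8% of genes had a promoter summit by GRCm38 starts against 17.2% by mm9 starts. No coordinate was converted. Of 18103 symbols present in both annotations, 18042 were used, and 14279 RefSeq entries without strand were left out of the GRCm38 starts. One row per interval, that of highest fold enrichment, was kept. Motif letters were searched on both strands. The members and gene lists were chosen with earlier results of these data known. Named genes were the markers, the genes leading the 20 first loci, the shared and the lowest members of each list, the genes nearest the limit and those farthest apart in the replicates, and some of them are not reported here. Genes named after their values were seen are marked as such. Alternatives covered the window, the distal limit, peak strength, peak number, the counting unit and each replicate left out. Python 3.11.15, numpy 2.4.6, pandas 2.3.3, scipy 1.17.1 and matplotlib 3.10.9 were used, and the counting was tested on simulated data.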

Additional observations from a re-analysis of the deposited data

How the results depend on the processing

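The number of shared genes, 304, was 38 with a limit of the top 1%, 800 with the top 10%, 512 with counts per window in place of per kb, and 116 over windows with at most 3 gene starts, an alternative chosen after seeing the data. With 1 Cho replicate left out, either way, it was the 903 dense genes of the other. The genes themselves changed more than their number: of 329 chosen from gene bodies alone 61 were among the 304, of 324 with 20 kb flanks 150, and of 430 by the nearest TSS 112. The replicate correlation of 0.717 was 0.655 with 20 kb flanks, 0.589 in gene bodies and 0.658 at a q-value below 1e-5, and cannot be had from 1 replicate.

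The share with a promoter summit in both Cho replicates was 57.8% for gene bodies, 75.8% for counts per window, 75.3% for the nearest TSS, 73.9% for genes with lengths within 10% and 75.0% for few gene starts, and 77.7% to 79.7% (promoter summit in the replicate kept) with a replicate left out. The share dense in WT was 77.6% with 100 kb flanks, 85.2% for counts per window, 79.5% for the nearest TSS and 39.3% to 54.0% with a Cho replicate left out. The share dense in E160/E308_Del was 82.2%, 93.8% and 83.5% in that order, 64.9% with equal numbers of peaks and 39.1% to 62.5% with a replicate left out. The share at the same distance was 39.6% at 100 bp, 66.0% at 500 bp, 63.3% from the gene end, 58.6% at a q-value below 1e-5, 71.4% for genes with lengths within 250 bp in both annotations (chosen after seeing the data) and 30.7% with equal numbers of peaks, where that of all genes, 32.4%, was the higher. The median percentile over both replicates was 79.6 (20 kb), 82.7 (gene body), 72.8 (equal numbers), 81.8 (counts per window) and 87.5 (nearest TSS) for growth factor signalling, and 81.3 (gene body) and 90.7 (nearest TSS) for transcription factors. For housekeeping genes it reached 91.6 with few gene starts, where AP-1 factors had 91.5. It ranged from 39.5 to 61.4 for keratinocyte genes and from 45.2 to 71.8 for genes of hypertrophic chondrocytes and osteoblasts. The highest values for muscle, blood and endothelium, neuron and hepatocyte genes were 52.7, 57.7, 56.7 and 54.9. The cause of these shifts was not tested. No paired analysis was possible because the labels number the replicates of Cho alone, and WT and E160/E308_Del, though from littermates, had 1 library each.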
